A study of Mus musculus with 31 samples.

Results

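The 10 genes described here stand for the answer of a cell to DNA damage: Cdkn1a, Mdm2, Trp53inp1, Bax, Ccng1, Gadd45a, Phlda3, Sesn2 and Fas, all known targets of the transcription factor p53, and Mgmt, which repairs alkylated guanine. Their probes were found by the gene name that the array files give to each probe. The arrays carried 19 probes for them among 56605, of which 17 passed the filter on dim probes. After probes were averaged by gene, all 10 genes were among the 19797 genes tested.

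RNA came from the distal colon of BALB/c mice of both sexes. All mice had received 1 injection of azoxymethane (AOM), an alkylating colon carcinogen, 1 week before the exposure began, and dextran sodium sulphate (DSS), which injures the colon epithelium, in the drinking water during the first days of it. The CRC + E171 groups also received food-grade titanium dioxide (E171) by gavage at 5 mg/kg body weight/day, and the CRC groups received the vehicle. Mice were killed after 2, 7, 14 or 21 days, which gave 8 groups of 4 arrays, except that CRC at 21 days held 3. No group without AOM is among the arrays, so the response to AOM itself has no baseline here. Every comparison is therefore between E171 and its absence, between days, or between sexes, all on top of AOM and DSS.

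Damage to DNA stabilises p53, which binds response elements built from paired half-sites and switches on genes that stop the cell cycle (Cdkn1a, Gadd45a, Ccng1), start cell death (Bax, Fas, Trp53inp1), restrain growth signalling (Phlda3, Sesn2) and close the loop by degrading p53 (Mdm2). AOM is converted in the body to a methylating agent, and its O6-methylguanine lesions are removed by MGMT, a protein that takes the methyl group onto itself and is used up. In the colon this repair and p53-driven death of crypt cells are known as barriers to tumour formation after AOM.

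The p53 half-site was searched by its name's consensus in the RefSeq promoters of build GRCm38.p6, from 250 bases before to 50 bases after each start. The consensus reads the same on both strands. Of the 10 genes 9 matched, with 11 promoters, and Trp53inp1 had no entry. A half-site was present in 5 of the 11 promoters, against 8.36% of all 32851 promoters in the table, and the upstream Cdkn1a promoter held 2, as did 0.359% of all promoters with 2 or more. These stretches are shown because they are the only ones of the 10 genes in which the search found the motif, with the half-site in capitals.
Cdkn1a, upstream start, chr17:29090886-29090957, plus strand: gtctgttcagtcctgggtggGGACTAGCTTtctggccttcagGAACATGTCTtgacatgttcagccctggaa
Mdm2, chr10:117710915-117710964, minus strand: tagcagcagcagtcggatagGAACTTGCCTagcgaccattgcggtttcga
Bax, chr7:45467070-45467119, minus strand: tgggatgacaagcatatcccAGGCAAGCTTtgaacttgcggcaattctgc
Ccng1, chr11:40755442-40755491, minus strand: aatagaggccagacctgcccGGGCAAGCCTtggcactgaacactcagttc
Gadd45a, chr6:67037418-67037467, minus strand: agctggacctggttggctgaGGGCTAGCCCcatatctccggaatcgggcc
The half-sites of Cdkn1a began 73 and 51 bases before the start, and those of the other promoters between 40 and 201 bases before it. No half-site lay in the listed promoters of Sesn2, Phlda3, Fas and Mgmt or in the downstream Cdkn1a promoter, which says only that these letters are not in those windows. A match is not evidence of binding, and no binding was measured here.

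The probes decide what each gene's value reads, so the first 30 of the 60 bases are shown for the probes on which the results turn. They are written in lower case throughout, since no part of a probe is singled out.
Sesn2, chr4:132048858-132048917 of build mm9, minus strand: agcccgtggtggtctccctgctgtctgaag
Phlda3, chr1:137665642-137665701 of mm9, plus strand: gtaagggttggccctttaccatttcatgct
Cdkn1a, bright probe, chr17:29237377-29237436 of mm9, plus strand: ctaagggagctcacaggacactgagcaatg
Cdkn1a, Ensembl transcript, chr17:29235299-29235358 of mm9, plus strand: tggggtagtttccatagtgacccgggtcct
Cdkn1a, transcript variant 2, chr17:29227986-29228045 of mm9, plus strand: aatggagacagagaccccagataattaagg
Mgmt, bright probe, chr7:144319790-144319849 of mm9, plus strand: atgacacatagatgtaacgcgtgtcggaag
The bright Cdkn1a probe starts at base 1619 of its transcript and the variant 2 probe at base 55 of its own, so they read opposite ends of the gene. A probe named Fas in the files lies on chromosome 4 (chr4:40555124-40555183 of mm9, minus strand) and was designed on a Fas transcript that carries a retrotransposon repeat, whereas the Fas gene lies on chromosome 19. Values of Fas are those of both probes together unless it is named as left out. The files do not state whether a probe lies in coding sequence or in a UTR.

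Values are log2 signals after subtraction of the array's 75th percentile, so 0 lies at that percentile, and levels of different genes cannot be set against each other because probes differ. Across arrays 67.4 to 78.9% of probes were well above background. Each array is 1 mouse, and precision is set by how many mice a group holds, though arrays of a group also share slides. All CRC arrays lay in column 2 of their slide and all CRC + E171 arrays in column 4. Males lay in row 1 and females in row 2. Arm and sex therefore cannot be told apart from the place on the slide, also within slides. The tissue label was checked against 8 markers of colonocytes and 8 of goblet cells. On 3 arrays both lists were low: CRC 7 days male 1, CRC 7 days male 2 and CRC + E171 14 days male 2. Their goblet cell values, medians over the list relative to each gene's mean, were -6.40, -2.55 and -3.70, against -0.37 to 1.10 on the other 28 arrays. Their neutrophil values were 4.26, 5.71 and 2.54, against at most 0.76 elsewhere, and CRC 7 days male 1 and CRC + E171 14 days male 2 also had squamous epithelium values of 7.43 and 6.82. The skeletal muscle value reached 7.37 on 1 of the 3, a CRC 7 days array, against at most 1.84 on the other 28. Fibroblast values of the 3 were 1.01 to 1.09, against at most 0.43 elsewhere. Pancreatic acinar markers were above 5 on 5 arrays and squamous markers above 2 on 5 arrays. In bulk tissue, fewer cells of a type and less RNA per cell cannot be told apart. Results that rest on the 3 arrays are given with and without them where both were fitted.

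**Figure D1:**
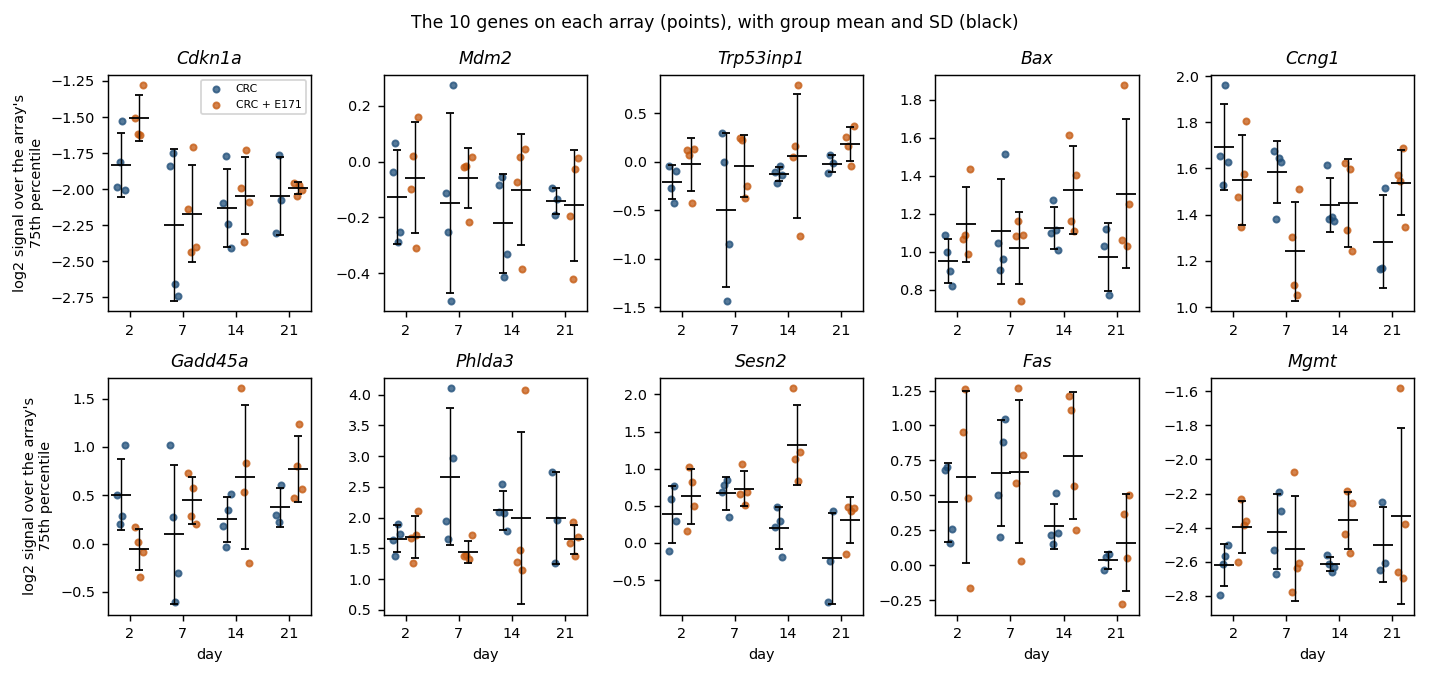
Log2 signal over the array's 75th percentile (vertical axis) of the 10 genes on each of the 31 arrays, by day (horizontal axis) and arm; black lines show the group mean and SD. The Sesn2 points of CRC + E171 at 14 days lie between 0.83 and 2.08, above all CRC points of that day, and the Phlda3 points above 2.9 are the 3 arrays low in goblet cell markers.

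The first question was whether E171 changed the p53 response on top of AOM and DSS. In 40 comparisons of a gene on a day, 2 passed the threshold for a differentially expressed gene (DEG), a linear fold change of 1.5 or more with an unadjusted p under 0.05 in limma. Sesn2 was up-regulated 2.16-fold at 14 days and Phlda3 was down-regulated 2.33-fold at 7 days. No gene of the 10 had an adjusted p under 0.05 on any day, and nor did any of the 19797 genes tested. Before adjustment, 0, 2, 1 and 0 of the 10 genes had a limma p under 0.05 at 2, 7, 14 and 21 days, and 541, 3327, 1580 and 1149 of all genes. In 38 of the 40 comparisons the estimated change was under 1.5-fold.

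At 2 days none of the 10 genes was a DEG, against a background of 1.72% of all genes tested. The estimates of 8 genes were above 0, beside 59.2% of all genes, with a median of 0.18 on the log2 scale beside 0.06 over all genes. At 7 days 1 of 10 was a DEG (Phlda3) against 12.4% of all genes, with 6 estimates above 0 beside 49.2% of all genes and a median of 0.04 beside -0.01. At 14 days 1 of 10 was a DEG (Sesn2) against 6.34%, with 9 estimates above 0 beside 51.5% of all genes and a median of 0.19 beside 0.01. At 21 days none was a DEG, against 2.67%, with 8 estimates above 0 beside 52% of all genes, and the median was 0.19 beside 0.02. The shares of DEG among the 10 genes thus lay near the background on each day.

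**Figure D2:**
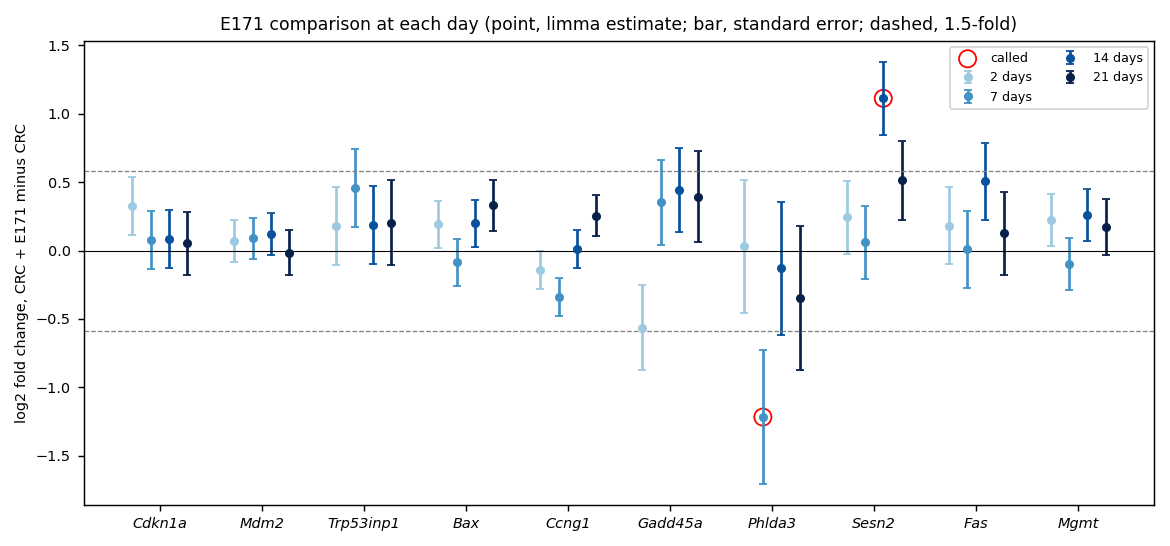
Log2 fold change of CRC + E171 minus CRC (vertical axis) for each of the 10 genes at 4 days, as limma estimates with standard errors; dashed lines mark 1.5-fold and red circles the DEG. The circled points are Phlda3 at 7 days (-1.22) and Sesn2 at 14 days (1.11).

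Sesn2 encodes sestrin 2, a stress-induced protein that lowers oxidative damage and inhibits the growth kinase mTORC1. At 14 days its log2 signals were 0.22, 0.48, 0.30 and -0.19 in CRC and 2.08, 1.13, 0.83 and 1.23 in CRC + E171, so the lowest E171 array lay above the highest control. The group means were 0.20 ± 0.28 and 1.31 ± 0.54 (SD, n = 4 each), a difference of 1.11 ± 0.27 (SE). In limma its unadjusted p was 0.000314 and its adjusted p 0.469, and the exact permutation p was 0.0286, the smallest that 4 arrays against 4 allow. Arrays of the groups did not overlap for 2 of the 10 genes on that day, Sesn2 and Mgmt, against 5.9% of all genes.

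Sesn2 was higher with E171 at 14 days in each of 15 other settings, with log2 fold changes from 0.87 to 1.17 and adjusted p from 0.0469 to 0.490. Leaving out each of the 31 arrays in turn gave 0.86 to 1.28. Without the 3 arrays low in goblet cell markers the difference was 1.14 with an adjusted p of 0.0469, and it passed the adjusted threshold only there, with the retrotransposon probe of Fas kept or left out. On the other days the differences were 0.24 at 2 days, 0.06 at 7 days and 0.51 at 21 days, none of them a DEG. At 21 days the controls read -0.80, -0.25 and 0.43, and the E171 arrays -0.15, 0.49, 0.42 and 0.47, which overlap; that difference became a DEG when CRC 21 days male 1 or CRC + E171 21 days female 1 was left out (0.83 and 0.67). The mean difference over the 4 days was 0.48 ± 0.14 (SE; adjusted p = 0.496 in limma), and 0.48 within slides. The difference of the Sesn2 effect between days had an adjusted p of 0.717.

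Phlda3 encodes a small membrane-binding protein that competes with the kinase AKT. At 7 days its log2 signals were 4.10, 2.97, 1.94 and 1.65 in CRC and 1.32, 1.71, 1.37 and 1.38 in CRC + E171. The highest values, 4.10 and 2.97, came from CRC males 1 and 2, the arrays low in goblet cell markers, and the groups overlapped between 1.65 and 1.71. The difference was -1.22 ± 0.49 (SE; p = 0.0193, adjusted p = 0.230 in limma), with an exact permutation p of 0.0571. It was -0.35 without the 3 arrays and -0.74 without CRC 7 days male 1 alone, and a DEG in neither case, so the call at 7 days rested on these arrays. On the same day 7 of 8 goblet cell markers and 6 of 8 colonocyte markers were higher with E171 as DEG, with medians of 2.56 and 2.82, and 3 of 8 neutrophil markers were lower. Other lists also held DEG. Skeletal muscle (Myh1 -4.99, Tnnt3 -4.22), macrophage (Mrc1 -1.09), endothelium (Emcn -1.05), fibroblast (Col1a1 -1.07) and pancreatic acinar markers (Cpa1 -6.42) were lower, and pan-epithelial markers (Vil1 2.09) higher. Without the 3 arrays 5 of 8 skeletal muscle markers were DEG, all lower (median -1.34).

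At 14 days the third of those arrays turned the picture of Phlda3. The controls read 2.08, 2.55, 2.07 and 1.78, and the E171 arrays 1.27, 1.47, 1.15 and 4.07, the last from male 2. The difference was -0.13 ± 0.49 over all arrays and -0.82 (adjusted p = 0.0791 in limma) without the 3 arrays, among them the array at 4.07. On those 28 arrays 4 of the 10 genes were DEG at 14 days, Sesn2, Gadd45a (0.74), Fas (0.69) and Phlda3, against 14.1% of all genes. Fas was a DEG there only with its retrotransposon probe, and without it (0.52) the count was 3. At 7 days none of the 10 was a DEG on those arrays, against 2.65% of all genes, and at 21 days none was, against 4.3%. In the comparison at 14 days 4 of 8 neutrophil markers (median -1.38), 4 of 8 macrophage markers (-0.70), 3 of 7 fibroblast markers (-0.71) and 2 of 8 smooth muscle markers (-0.75) were DEG, all lower with E171, while 1 of 8 colonocyte markers (median 0.47) and 1 of 8 goblet cell markers (median 0.24) were DEG and higher. Skeletal muscle, endothelium, squamous and pancreatic acinar lists held 1 lower DEG each. The part of tissue content in these differences was not tested.

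**Figure D3:**
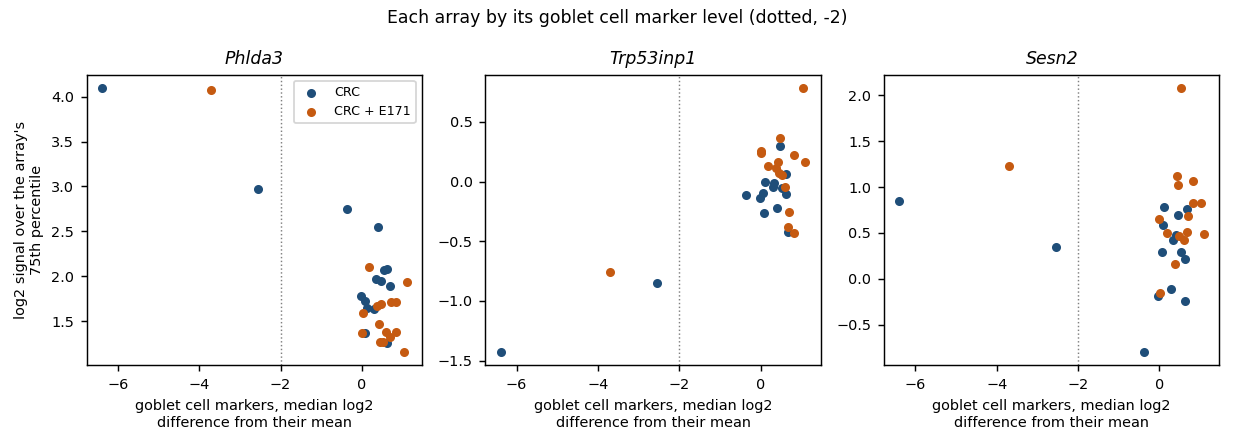
Log2 signal of Phlda3, Trp53inp1 and Sesn2 on each array (vertical axis) against the median goblet cell marker level (horizontal axis, log2 relative to each marker's mean). The 3 arrays left of the dotted line at -2 hold Phlda3 values of 4.10, 2.97 and 4.07 and Trp53inp1 values of -1.43, -0.85 and -0.76, and their Sesn2 values of 0.85, 0.35 and 1.23 lie within the range of the others.

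Among the genes of cell cycle arrest, Cdkn1a encodes p21, an inhibitor of cyclin-dependent kinases and the standard marker of p53 activity. Its gene value, the mean of 3 probes, moved by at most 0.33 with E171 over all arrays, at 2 days, where CRC read -1.98, -1.82, -1.53 and -2.01 and CRC + E171 -1.51, -1.62, -1.63 and -1.28 (exact permutation p = 0.0857). Those groups overlapped through 1 control, male 1. At 7 days the gene value was 0.08 higher with E171 over all arrays and 0.38 lower without the 3 arrays low in goblet cell markers, a DEG in neither case. The 3 probes differed by day. The bright probe averaged 2.82 and 2.76 at 2 days (CRC and CRC + E171), 2.30 and 2.02 at 7 days, 2.14 and 2.10 at 14 days and 2.85 and 3.16 at 21 days. The means of both arms thus read lower at 7 and 14 days than at 2 and 21 days. In CRC at 7 days this came from males 1 and 2 (2.31 and 1.20), both low in goblet cell markers, while the females read 2.86 and 2.85, level with 2 and 21 days. In a fit over all 42787 kept probes the difference at 14 days against 2 days was -0.67 ± 0.21 (SE; adjusted p = 0.319 in limma), and the difference of 21 days against 7 days was 0.84 ± 0.22 (adjusted p = 0.081). For this probe the differences between days were not fitted without the 3 arrays low in goblet cell markers. The part of these arrays in both values is therefore not known.

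The probe for Cdkn1a transcript variant 2 was well above background on 27 of the 31 arrays. It read -5.18, -4.84, -4.88 and -5.72 in CRC and -4.70, -4.52, -4.58 and -4.16 in CRC + E171 at 2 days, and -6.01, -5.83 and -5.51 in CRC and -6.15, -5.88, -5.59 and -6.20 in CRC + E171 at 21 days. The arms together were 1.04 lower at 21 days than at 2 days on the log2 scale (SE 0.24, adjusted p = 0.0400 in limma), the only 1 of the 17 probes to pass that threshold, against 0.715% of all kept probes. At 21 days 3 of the 4 E171 arrays were not well above background on this probe, so the size of the difference rests partly on signals that are only bounds. The adjusted p was above 0.05 with quantile normalization (0.0775), with scan day as a block (0.0886) and with normexp background correction (0.176), where the difference was -0.39, and it ranged from 0.0166 to 0.111 when arrays were left out singly. The day alternatives for this probe were chosen after its value was seen. With E171 it was 0.67 higher at 2 days (adjusted p = 0.9998 in limma), which made it the 1 DEG among the 17 probes on that day against 2.74% of all probes.

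The third Cdkn1a probe, for an Ensembl transcript, was 1.06 higher with E171 at 7 days (adjusted p = 0.218 in limma). Its controls read -3.25 and -3.18 in the females but -5.11 and -4.82 in males 1 and 2, the arrays low in goblet cell markers, and the E171 arrays read -2.91, -2.92, -2.51 and -3.77. It was 1 of 3 DEG among the 17 probes at 7 days against 12.3% of all probes, beside Phlda3 and a Trp53inp1 probe. Without the 3 arrays low in goblet cell markers it was 0.19 higher and no DEG, and 1 of the 17 probes was a DEG at 7 days, against 3.2% of all probes. That one was the bright Cdkn1a probe, 0.83 lower with E171 (adjusted p = 0.9997 in limma), whose difference over all arrays was -0.28. With all arrays, at 14 days 1 probe (Sesn2) was a DEG against 6.68%, and at 21 days none was, against 3.7%. At 14 days 5 of the 17 probes were DEG without the 3 arrays, against 13.7% of all probes, among them the Ensembl probe (0.83) and the variant 2 probe (-0.63) of Cdkn1a in opposite directions.

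**Figure D4:**
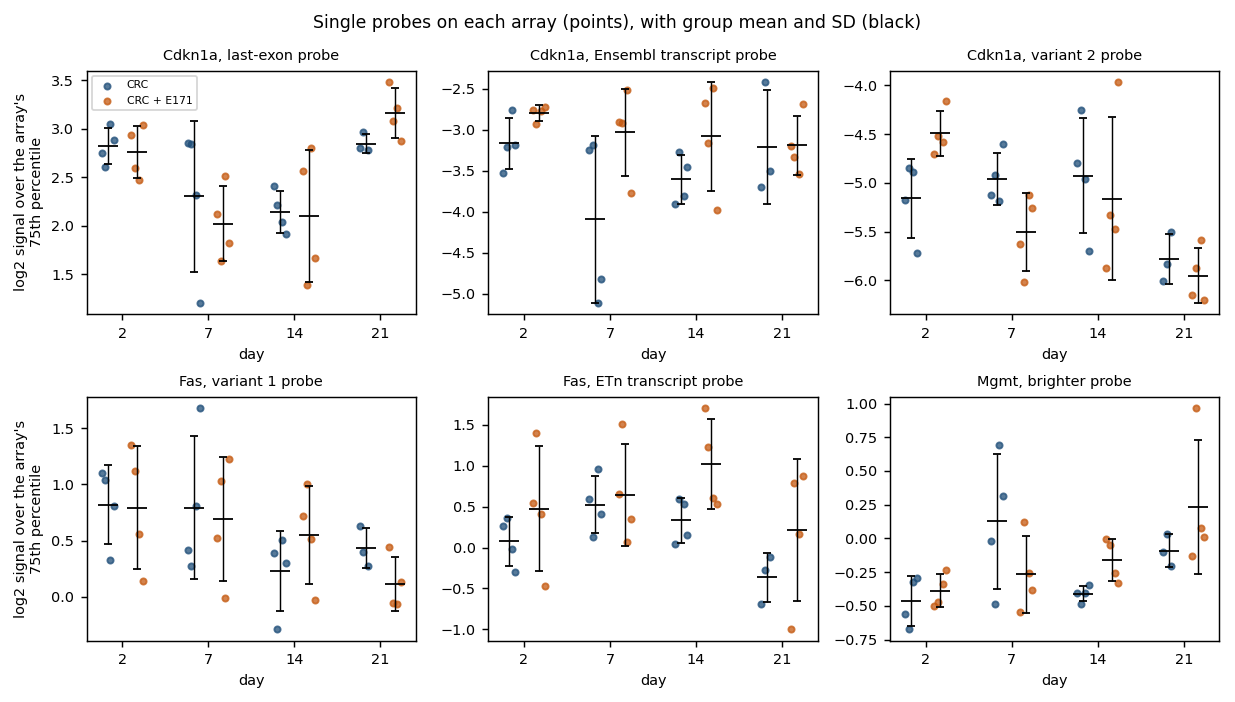
Log2 signal over the array's 75th percentile (vertical axis) of single probes on each array by day (horizontal axis) and arm, with group mean and SD in black, for 3 Cdkn1a probes, 2 Fas probes and the brighter Mgmt probe. The means of the bright Cdkn1a probe are lowest at 7 and 14 days in both arms, in CRC at 7 days through males 1 and 2 alone, and the variant 2 probe is lowest at 21 days.

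Gadd45a, a stress sensor that binds cell cycle and DNA repair proteins, was the 1 gene of the 10 whose groups did not overlap at 2 days, against 3.91% of all genes. CRC read 0.50, 0.20, 0.29 and 1.02 and CRC + E171 0.17, 0.02, -0.34 and -0.09, a difference of -0.56 ± 0.31 (SE; p = 0.0797, exact permutation p = 0.0286, adjusted p = 0.999 in limma), just short of 1.5-fold. From 7 days on the estimates were above 0, at 0.35, 0.44 and 0.40, but the one at 7 days was -0.20 without the 3 arrays low in goblet cell markers. The difference of the effect between days had an adjusted p of 0.717 for Gadd45a, so the turn of sign was not shown. The lowest Gadd45a values after 2 days, -0.61, -0.31 and -0.20, again came from the 3 arrays low in goblet cell markers.

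Ccng1, cyclin G1, which recruits a phosphatase to Mdm2, read 1.68, 1.38, 1.65 and 1.63 in CRC and 1.31, 1.09, 1.05 and 1.51 in CRC + E171 at 7 days. The groups overlapped through 1 control and 1 E171 array, and the difference of -0.34 ± 0.14 (SE) had p = 0.0213 and an adjusted p of 0.235 in limma and an exact permutation p of 0.0571. At 1.27-fold Ccng1 was not a DEG. At 21 days its estimate was 0.25. No gene of the 10 had groups without overlap at 7 days (background 4.85%) or at 21 days (background 8.01%).

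Mdm2, the ubiquitin ligase that degrades p53 and is itself induced by it, had the smallest span of group means among the 10 genes. Its 8 group means spanned 0.16 on the log2 scale, from -0.22 to -0.06, and its differences with E171 were 0.07, 0.09, 0.12 and -0.02 at 2, 7, 14 and 21 days. Each was smaller than its standard error of 0.15 to 0.16. The gene value averages a bright and a dim probe whose group means spanned 0.22 and 0.41, and which differed with E171 in opposite directions at 7 days (-0.19 and 0.37), neither a DEG. By comparison the group means of Sesn2 spanned 1.52 and those of Phlda3 1.22.

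Among the genes of cell death, Bax, the pore-forming protein of the mitochondrial outer membrane, ranged in group mean from 0.95 to 1.32. Its largest difference was at 21 days, where CRC read 1.03, 1.12 and 0.77 and CRC + E171 1.06, 1.88, 1.03 and 1.25, which overlap (0.33 ± 0.19, SE; adjusted p = 0.884 in limma). The array at 1.88, female 2, was also the one highest in pancreatic acinar markers (9.93). Trp53inp1, which promotes p53-dependent death and autophagy, was at most 0.45 higher with E171 over all arrays, at 7 days. Without the 3 arrays low in goblet cell markers its difference at 7 days was -0.19. At 14 days its difference was 0.19 over all arrays and 0.46 without the 3 arrays. None of these differences was a DEG. Its lowest values were -1.43 and -0.85 in CRC at 7 days and -0.76 in CRC + E171 at 14 days, the 3 arrays low in goblet cell markers. Its probe near the transcript's start was a DEG at 7 days (0.61 higher with E171), where the same CRC arrays read -2.84 and -2.66 beside -1.55 and -1.73 in the other controls. Without the 3 arrays that probe's difference was 0.06.

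Fas encodes the death receptor of that name. Its value from both kept probes was 0.51 ± 0.28 (SE) higher with E171 at 14 days, with 0.21, 0.15, 0.52 and 0.23 in CRC and 1.21, 1.11, 0.56 and 0.25 in CRC + E171, which overlap (adjusted p = 0.669 in limma). The probe on chromosome 19 alone gave 0.32 ± 0.31 and the retrotransposon probe on chromosome 4 gave 0.69 ± 0.38, so the larger shift was that of the probe that lies off the Fas locus. Over days the locus probe averaged 0.82 and 0.79 at 2 days and 0.43 and 0.11 at 21 days in CRC and CRC + E171, a difference of -0.53 ± 0.23 (SE; adjusted p = 0.271 in limma).

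Mgmt, the gene of alkylation repair, was not a DEG on any day. At 14 days its arrays did not overlap, with -2.56, -2.61, -2.66 and -2.63 in CRC and -2.43, -2.19, -2.55 and -2.25 in CRC + E171, yet the difference was small (0.26 ± 0.19, SE; 1.20-fold; p = 0.185, adjusted p = 0.770 in limma; exact permutation p = 0.0286). The brighter of its 2 probes averaged -0.46 and -0.39 at 2 days, 0.13 and -0.27 at 7 days, -0.41 and -0.16 at 14 days and -0.09 and 0.23 at 21 days in CRC and CRC + E171. The CRC mean at 7 days rested on males 1 and 2 (0.69 and 0.32), the females reading -0.02 and -0.48, and the E171 difference of -0.39 on that day was -0.02 without the 3 arrays low in goblet cell markers. The brighter probe was 0.49 ± 0.16 (SE) higher at 21 days than at 2 days (adjusted p = 0.133 in limma), while the dimmer probe was 0.31 lower and also short of the threshold. The highest value of the brighter probe, 0.97, was that of CRC + E171 21 days female 2.

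Averaged over the 4 days, the E171 effect was above 0 for 8 of the 10 genes, beside 56.7% of all genes. The median was 0.15 beside 0.03 over all genes, and none of the 10 passed an adjusted p of 0.05, against 0.00505% of all genes (1 gene). The difference of the effect between days was passed by none of the 10 and by 0% of all genes. Among the CRC arrays alone none of the 10 genes differed between days (background 0%), and over the 8 groups none did (background 0.00505%, 1 gene), the smallest adjusted p being that of Sesn2 (0.212).

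With both arms averaged, Cdkn1a as a gene was lower than at 2 days by 0.54 at 7 days (adjusted p = 0.438 in limma; by 0.31 without the 3 arrays low in goblet cell markers), by 0.42 at 14 days and by 0.35 at 21 days. The last of these changed sign with the probe: the bright Cdkn1a probe was 0.21 higher at 21 days. None of the 10 genes passed the adjusted threshold at 7 days (background 0%), at 14 days (background 0%) or at 21 days, where 0.374% of all genes did. Before adjustment, 2, 1 and 3 of the 10 had a limma p under 0.05 at those days, beside 10.8, 9.47 and 14.4% of all genes. Sesn2 at 21 days was 0.45 below its level at 2 days and Fas 0.44 below (adjusted p = 0.284 and 0.328 in limma), or 0.53 below without the retrotransposon probe (adjusted p = 0.278 in limma). Males and females did not differ past the adjusted threshold in any of the 10 (background 0.0556%), and Trp53inp1 came closest, 0.29 lower in males (adjusted p = 0.541 in limma), but 0.07 lower without the 3 arrays low in goblet cell markers, all of them males (adjusted p = 0.830 in limma).

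Other genes of the pathway were taken as whole lists. Of 29 other p53 targets tested, 3 were DEG at 7 days, when 12.4% of all genes were, and none on the other days. Those were Ak1 (-1.62) and Eda2r (-0.95), which were down-regulated, and Dgka (0.66), which was up-regulated; they encode an adenylate kinase, a receptor of the TNF family and a lipid kinase. Without the 3 arrays low in goblet cell markers none of these was a DEG (Ak1 -0.42, Eda2r -0.48, Dgka -0.14), and the counts of the list were then 1 at 7 days and 1 at 14 days, beside 2.65 and 14.1% of all genes. The list's medians were 0.07, 0.09, -0.08 and 0.02 at 2, 7, 14 and 21 days. Of 19 genes of p53 and its regulators, Ep300, a histone acetyltransferase, rose at 7 days (0.75) and Hipk2, a kinase that phosphorylates p53, rose at 14 days (0.76), 1 of 19 on each day beside 12.4 and 6.34% of all genes. Without the 3 arrays Ep300 was no longer a DEG (0.41) and Hipk2 still was (0.88), and 1 gene of the list was lower at 21 days, when 4.3% of all genes were DEG. Trp53 itself differed with E171 by 0.02, 0.15, 0.17 and 0.23, none of them a DEG.

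None of 19 further genes of alkylation repair was a DEG on any day. The list holds the demethylases of the Alkbh family, base excision repair from Mpg to Lig3 and the mismatch repair genes that read O6-methylguanine, and its medians were -0.11, -0.07, -0.01 and -0.04. Of 11 paralogs of the 10 genes, 4 were DEG at 7 days: 3 were down-regulated, led by Phlda2 (-1.89) and Gadd45g (-1.09), and Cdkn1b (0.60) was up-regulated. None was a DEG on the other days. That count is to be set against the 12.4% of all genes called at 7 days, and without the 3 arrays it was 0 at 7 days (Phlda2 -1.29, Gadd45g -0.07, Cdkn1b 0.24) and 3 at 14 days, when 14.1% of all genes were DEG. Cyp2e1, the enzyme that activates AOM, varied too much to compare, with standard errors of 1.84 to 1.99 around its E171 estimates. Proliferation genes gave 0 of 13 DEG on each day, and without the 3 arrays 1 of 13, lower at 14 days, with a median of -0.52.

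The second question was whether the 10 genes moved together from mouse to mouse. Each gene's group mean was subtracted and the 45 pairs were correlated over 31 arrays. The median Pearson r was 0.0203, 24 of the 45 were above 0, and none passed a Benjamini-Hochberg adjusted permutation p of 0.05, by Pearson's r or by Spearman's rho (100000 permutations within groups). With slide means removed as well, 2 pairs passed, Cdkn1a with Fas (adjusted permutation p = 0.0108) and Trp53inp1 with Phlda3 (adjusted permutation p = 0.0481). The lowest p was that of Cdkn1a and Fas, which ran against each other (r = -0.585, permutation p = 0.00149, adjusted p = 0.0671; rho = -0.558, permutation p = 0.00543, adjusted p = 0.244). Without the 2 arrays farthest on Cdkn1a r was -0.522, without the 3 arrays low in goblet cell markers -0.574, and with slide means removed -0.619. With the retrotransposon probe of Fas left out r was -0.710, and the pair then passed (adjusted permutation p = 0.0117), with Cdkn1a still the mean of its 3 probes. With only the brightest probe of each gene r was -0.508 and the pair did not pass (adjusted permutation p = 0.300). Nor did it pass with the authors' values (r = -0.52, adjusted permutation p = 0.155). When CRC + E171 21 days female 2 was left out, Mdm2 and Bax passed (r = 0.697), a pair with r = 0.337 over all arrays.

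Trp53inp1 and Gadd45a ran together (r = 0.628, permutation p = 0.0331, adjusted p = 0.303) and both ran against Phlda3 (r = -0.759, permutation p = 0.00399, adjusted p = 0.0898, and r = -0.669, permutation p = 0.0170, adjusted p = 0.255). Their rho values were 0.506, -0.519 and -0.529, with adjusted permutation p of 0.284 each. Without the 3 arrays low in goblet cell markers these values were 0.0836, -0.148 and -0.141, so the relations rested on those arrays. With the slide means removed they were 0.655, -0.743 and -0.710. Bax and Mgmt gave r = 0.568 (permutation p = 0.0337, adjusted p = 0.303; rho = 0.44, adjusted p = 0.284), 0.338 without the 2 arrays farthest on Bax and 0.601 without the 3 arrays.

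**Figure D5:**
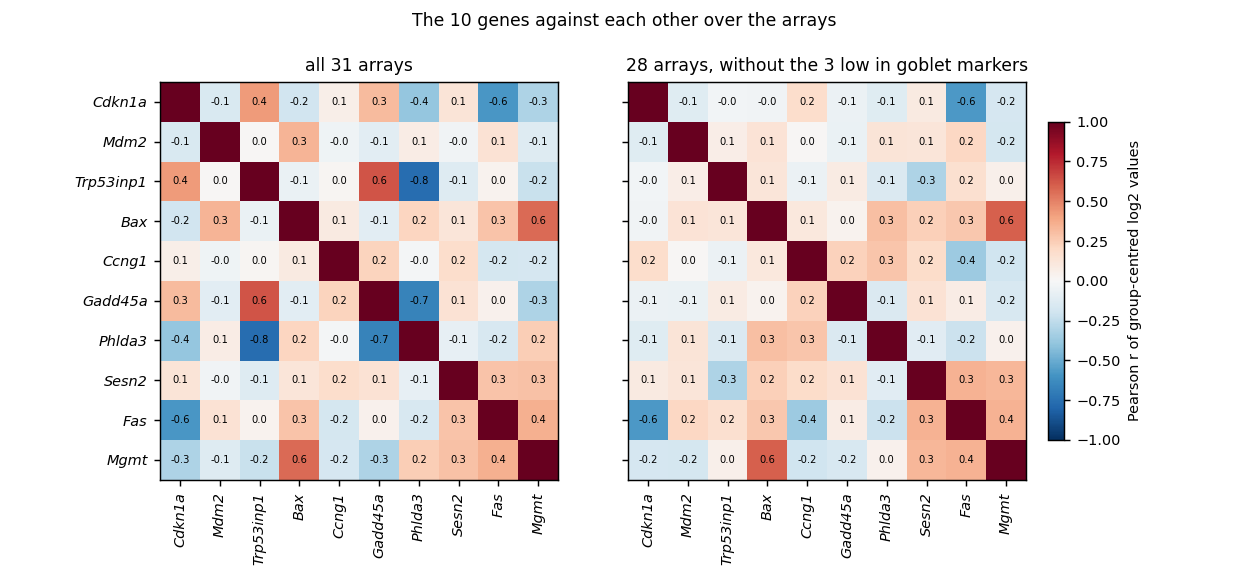
Pearson r between each pair of the 10 genes (rows and columns) after subtraction of group means, over all 31 arrays (left) and over 28 arrays without the 3 low in goblet cell markers (right), on a scale from -1 to 1. The block of Trp53inp1, Gadd45a and Phlda3 on the left is absent on the right, while Cdkn1a against Fas stays near -0.57.

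The genes most like each of the 10 were mostly found outside the pathway, over 19740 ranked genes and 31 arrays. Phlda3 had the closest followers, Efs (r = 0.956), Crip2 (0.948) and Jag2 (0.935), and these values were 0.866, 0.779 and 0.722 without the 3 arrays. Mgmt was followed by Trp53i13 (0.907), 1700020L24Rik (0.864) and Zfp575 (0.855), at 0.923, 0.869 and 0.868 without them. For Cdkn1a they were Rnf44 (0.813), Baiap2l1 and Plekha6, for Sesn2 Myo18a (0.739), Gm4262 and Pym1, and for Mdm2 Edc4 (0.800), Hspa4 and Zmpste24. Trp53inp1 lay closest to Gm5485 (0.867), Gata6os and Cd82, but at 0.388, 0.437 and 0.497 without the 3 arrays. Fas lay closest to Cab39l (0.841; 0.687 and rank 24 without the retrotransposon probe), Bax to Lsm10 (0.757), Ccng1 to Ddi2 (0.744) and Gadd45a to Dcbld1 (0.816). The highest place that any of the 10 took in another's ranking was 85, Mgmt in that of Bax, followed by 548, Trp53inp1 in that of Gadd45a.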

How the data were processed

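The authors scanned one-colour Agilent arrays and extracted a background-subtracted processed intensity per spot, deposited without normalization between arrays. The authors' log2 values, filtered by flags, missing values and mean, imputed by K-nearest neighbours and normalized by a method not given in the sources used here, served as an alternative. The main values are log2 of the processed signal minus the array's 75th percentile. A probe was kept where at least 60% of a group's arrays were well above background with a mean log2 signal of 4 or more. Probes of a gene were averaged over 19797 genes matched to RefSeq by accession, symbol or synonym. Each of the 31 deposited columns ranked its probes most like its own array.

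One limma model over 8 groups (R 4.3.3, limma 3.58.1) gave all comparisons, with Benjamini-Hochberg adjustment over all genes tested; it recovered known changes in simulated data. Single genes were also given exact permutation tests, two-sided. Alternatives were other normalizations, filters, probes, blocks, array weights and leaving out each array; the fit by probe, Fas without its retrotransposon probe, leaving out the 3 arrays low in goblet cell markers (alone, with that probe, by probe and in the context lists) and the settings tried on the Cdkn1a variant 2 probe were chosen after seeing the data. Both arms of a day lay on different slides, and slides pair days across arms (7 with 21, 2 with 14), so slide entered single-day comparisons only as a random block. The rule for names was all 10 genes, at most 2 genes per direction of a context list among DEG, and the 3 nearest genes of each. The genes and lists were chosen with earlier results of these data known. Nothing in the labels pairs mice across groups, and p-values measure the spread between single mice. One further context list is not reported here.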

Additional observations from a re-analysis of the deposited data

Results flagged for a closer look

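In 7 of 70 groups of 4 arrays 1 array lay far from the other 3 for 1 of the 10 genes, where chance gives about 1 in 20. On the log2 scale the widest gap was that of Phlda3 in CRC + E171 14 days male 2, at 4.07 beside 1.15 to 1.47, one of the 3 arrays low in goblet cell markers. Phlda3 in CRC + E171 7 days male 2 read 1.71 beside 1.32 to 1.38. Sesn2 in CRC + E171 21 days female 1 read -0.15 beside 0.42 to 0.49, and without it the E171 difference at 21 days passed the DEG threshold. Trp53inp1 in CRC + E171 2 days male 1 read -0.43 beside 0.07 to 0.13. Ccng1 read 1.61 in CRC 14 days female 1 beside 1.37 to 1.39, and 1.38 in CRC 7 days female 2 beside 1.63 to 1.68. Mdm2 in CRC + E171 7 days male 1 read -0.22 beside -0.02 to 0.02.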

How the results depend on the processing

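Sesn2 at 14 days stayed a DEG in each of the 15 other fits and with each array left out, but its log2 fold change of 1.11 fell short where the threshold was raised to a log2 fold change of 1.5. The count of DEG among the 10 genes at 14 days, 1, became 2 with array weights, with normexp and with the authors' values, 4 without the 3 arrays low in goblet cell markers, 3 when the retrotransposon probe of Fas was left out as well, and 0 at a log2 fold change of 1.5, and ranged from 1 to 4 when arrays were left out singly. At 7 days, also 1, it became 0 with array weights, without the 3 arrays (with either set of Fas probes) and at a log2 fold change of 1.5, and 2 with no fold change threshold, and ranged from 0 to 3. It was 3 without CRC 7 days female 1, when Gadd45a (0.66) and Trp53inp1 (0.72) also passed. At 14 days the count of 4 came without CRC + E171 14 days male 2 alone. At 2 days it became 1 with array weights (Gadd45a, -0.71), and at 21 days it ranged from 0 to 1. Across the 8 groups Sesn2 and Gadd45a passed the adjusted threshold with array weights, 2 of the 10 genes beside 11.4% of all genes. The count of correlated pairs, 0, became 2 with slide means removed, 1 with the retrotransposon probe of Fas left out (Cdkn1a and Fas, r = -0.710), and 0 to 2 when arrays were left out singly. The cause of these moves was not tested.

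Animals share only a sex and number across groups, and the deviations of same-numbered arrays of a day correlated from -0.181 to 0.433 at 2, 7 and 14 days, which does not pair the mice. At 21 days all 3 same-numbered pairs correlated at 0.208 to 0.479, above every other pairing (at most 0.169). These pairs share a sex and a slide row, and those numbered 1 also a scan day, so this need not mean paired mice. The cause was not tested. With a replicate block of sex and number the counts of DEG were 0, 1, 1 and 0 at 2, 7, 14 and 21 days. The DEG over all arrays among the 10 genes, Phlda3 at 7 days and Sesn2 at 14 days, turned sign under no setting run, while genes of the other lists did, such as Dgka at 7 days without the 3 arrays (0.66 to -0.14). With 4 arrays a group, the median standard error of a difference over all genes was 0.31. Those of the 10 genes ran from 0.14 (Ccng1) to 0.53 (Phlda3 at 21 days). Changes near or below 1.5-fold could thus be missed for many genes. At the adjusted threshold larger ones could be too, as with Sesn2 at 14 days (2.16-fold, adjusted p = 0.469 in limma).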
